A study of Mus musculus with 27 samples.

Results

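Double-marked sites are the stretches of the genome where blood progenitor cells of the mouse had a called peak of H3K4me1 on top of a called peak of a second histone mark, written H3K27me3 in the sample titles. Hematopoietic progenitor cells (HPC) and hematopoietic stem cells (HSC) were sorted from fetal mice at embryonic day E16.5 and from adult mice 8 weeks old, and were profiled by ChIPmentation, in which chromatin pulled down with an antibody is tagged by the Tn5 transposase. A site was taken as double-marked when a peak of the K27 list of fetal HPC, on an autosome, overlapped an H3K4me1 peak of fetal HPC by 1 bp or more, and likewise within adult HPC. The rule gave 4139 of 53596 autosomal K27 peaks in fetal HPC and 1889 of 47556 in adult HPC. The titles of the K27 libraries say H3K27me3, but their mark field says H3K27ac, so the peaks are called K27 sites here. Each list pooled the libraries of its group, with 2 fetal and 3 adult HPC libraries for K27, 3 and 3 for HPC H3K4me1, 3 and 4 for HSC H3K4me1 and 3 and 3 for HPC H3K27ac. The mice were of the B6 background. The labels give no genotype or treatment, and no source used here gives the markers of the sort or the number of mice behind a library.

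H3K27me3 is written by the Polycomb complex PRC2 on genes kept silent, and H3K4me1 lies on enhancers and on the flanks of promoters, whether or not they are in use. H3K27ac is laid on the same lysine as H3K27me3 and marks active promoters and enhancers and cannot share it on the same histone tail. Developmental genes in stem cells often carry H3K27me3 together with an H3K4 methyl mark, a state called bivalent or, at enhancers, poised. In its classical form the partner is H3K4me3, which was not analysed here. The overlap of peaks from separate libraries does not show both marks on 1 chromosome: cells of different kinds in one sample, both alleles, and true joint marking cannot be told apart.

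Control genes were read first, because of the conflict between title and mark field. None of the 36 housekeeping genes matched on autosomes had a K27 peak within 1 kb of a start at either age, while 35 had H3K27ac there at each age. Of 30 genes of stem and progenitor cells, 26 had H3K27ac at a start in fetal HPC and 29 in adult HPC. Of 12 hepatocyte markers, 2 had it at each age. The 8 peak lists held 901169 peaks in all. Read depths are unknown. With 1 pooled list per group there is no spread between replicates, so no test across samples was possible. Shares carry 95% Wilson intervals that cover counting error only, and neighbouring sites are not independent.

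Gene starts near double-marked sites were mostly rich in CpG. CpG islands are known to recruit both Polycomb complexes and H3K4 methyltransferases. The following starts are examples. They are 250 bases upstream of the start, 5′ to 3′ on the gene's strand, from RefSeq on GRCm38.p6, with each CG in capitals.
Lhx2, chr2:38339031-38339280, plus strand: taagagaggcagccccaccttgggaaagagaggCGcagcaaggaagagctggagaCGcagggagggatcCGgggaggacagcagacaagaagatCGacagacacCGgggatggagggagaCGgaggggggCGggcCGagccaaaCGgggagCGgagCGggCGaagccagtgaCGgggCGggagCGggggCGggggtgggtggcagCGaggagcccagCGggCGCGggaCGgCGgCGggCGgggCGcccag
Cdkn2c, chr4:109666757-109667006, minus strand: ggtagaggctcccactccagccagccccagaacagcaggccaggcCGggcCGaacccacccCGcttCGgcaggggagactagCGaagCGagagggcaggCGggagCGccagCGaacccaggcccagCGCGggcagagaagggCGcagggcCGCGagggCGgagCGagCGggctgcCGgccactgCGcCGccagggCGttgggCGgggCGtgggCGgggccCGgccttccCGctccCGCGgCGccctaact
Igf2bp2, chr16:22163300-22163549, minus strand: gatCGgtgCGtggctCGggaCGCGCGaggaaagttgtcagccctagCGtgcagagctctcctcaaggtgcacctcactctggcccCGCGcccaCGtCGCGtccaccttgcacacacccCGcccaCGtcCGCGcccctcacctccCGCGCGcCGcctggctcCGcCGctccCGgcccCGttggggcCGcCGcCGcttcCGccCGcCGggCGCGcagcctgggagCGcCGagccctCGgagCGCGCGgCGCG
Pdgfra, chr5:75152001-75152250, plus strand: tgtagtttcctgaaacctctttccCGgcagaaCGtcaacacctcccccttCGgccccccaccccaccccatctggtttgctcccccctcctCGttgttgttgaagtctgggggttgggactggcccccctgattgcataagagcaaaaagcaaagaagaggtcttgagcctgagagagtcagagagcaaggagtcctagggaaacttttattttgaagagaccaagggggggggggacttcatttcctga
Tcf21, chr10:22820144-22820393, minus strand: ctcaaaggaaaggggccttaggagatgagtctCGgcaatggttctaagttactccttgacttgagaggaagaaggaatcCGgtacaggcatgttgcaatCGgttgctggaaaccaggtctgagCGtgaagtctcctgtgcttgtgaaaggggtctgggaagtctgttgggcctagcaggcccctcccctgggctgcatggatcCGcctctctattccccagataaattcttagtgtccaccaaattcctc
Lhx2, a LIM homeobox factor of brain and limb, had double-marked sites 696 bp from this start in fetal and 766 bp in adult HPC, and the stretch holds 25 CG. Cdkn2c encodes the cell cycle inhibitor p18 and was double-marked in fetal HPC, 944 bp from this start, with 29 CG. Igf2bp2, an RNA-binding protein of the fetal blood programme, was double-marked in adult HPC 761 bp from the start and has 40 CG. The last pair of starts lay inside a double-marked site and are poor in CG. Pdgfra, a receptor of mesenchymal cells, has 4 CG and lay inside a fetal site, and Tcf21, a bHLH factor of mesenchyme, has 5 CG and lay inside an adult site.

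Over all 20085 promoters listed by RefSeq, 46.5% were CpG-rich, taken as an observed to expected CpG ratio of at least 0.6 and a GC content of at least 50% over 300 bp. Of 933 promoters with a double-marked site within 1 kb in fetal HPC, 60.1% (57.0 to 63.2) were CpG-rich, and of 423 in adult HPC 68.1% (63.5 to 72.3). With another K27 site and no double-marked one, the shares were 35.8% of 1043 and 29.9% of 812. Active promoters, with H3K27ac and no K27 site within 1 kb, stood at 72.9% of 9547 and 69.5% of 11298. The double-marked promoters therefore lay nearer to active promoters than to other K27 promoters in CpG content.

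The CpG content of double-marked promoters differed with the distance of the site from the start. The printed sequences are examples and do not show the exceptions. Starts of Hand2 and Hoxa11, with 15 and 13 CG, also lay inside a fetal site and were CpG-rich. In fetal HPC, 10 of 86 promoters (11.6%, 6.44 to 20.1) were CpG-rich where the start lay inside the double-marked site. The share was 59.1% of 379 at 1 to 500 bp and 69.9% of 468 (65.6 to 73.9) at 501 to 1000 bp. In adult HPC it was 0 of 15 inside (0 to 20.4%), 66.3% of 160 at 1 to 500 bp and 73.4% of 248 at 501 to 1000 bp. Among these promoters, CpG-rich starts thus sat beside the double-marked site, and starts under such a site were mostly CpG-poor. Promoters with other K27 sites were not split by distance, so whether this is particular to double-marked sites was not tested.

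Double-marked sites made up 7.72% (7.50 to 7.95) of fetal K27 sites and 3.97% (3.80 to 4.15) of adult ones. Fetal HPC had the longer H3K4me1 list, with 174599 autosomal peaks against 124508. With the 100000 strongest H3K4me1 peaks at each age the shares were 4.36% and 3.55%, and the difference between the ages fell from 3.75 to 0.81 percentage points. Among peaks with −log10 q at or above 5 they were 20.6% and 6.67%, and with 50% or more of the K27 peak covered 4.40% and 2.27%. Read from the H3K4me1 side, 4445 of the fetal peaks (2.55%) and 1720 of the adult ones (1.38%) touched a K27 site. The overlap is what the rule used and is given as a description.

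As intervals, the double-marked sites were wider than other K27 sites, with a median of 824 bp against 570 bp in fetal HPC and 500 bp against 407 bp in adult HPC. The fold of signal over background that the authors gave each peak had a median of 3.26 against 2.80 in fetal and 3.05 against 2.92 in adult HPC. Among fetal K27 sites split by this fold into 5 equal classes, the double-marked share was 3.68%, 4.69%, 5.52%, 7.59% and 17.1% from weakest to strongest. Among adult sites it was 3.08%, 2.89%, 3.83%, 4.17% and 5.89%. A wide peak meets another peak more easily, so nearness to starts and K27 and H3K27ac at the other age were also compared within width classes. Many sites were weak calls. A −log10 q of at least 5 was reached by 1457 fetal sites (35.2%) and 38 adult sites (2.01%).

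The way both peaks met differed between the ages. In fetal HPC the H3K4me1 peaks that touched K27 were narrow, with a median of 550 bp against 629 bp for the others, and in 27.7% of double-marked sites H3K4me1 lay wholly within the K27 peak. In adult HPC the partner peaks were broad, with a median of 1263 bp against 868 bp, and H3K4me1 lay wholly within the K27 peak at 2.70% of sites. The median stretch shared was 427 bp in fetal and 268 bp in adult HPC. H3K4me1 covered the K27 peak from end to end at 729 fetal sites (17.6%) and 608 adult sites (32.2%). The sites sharing most bases lay in fetal HPC at Prdm8 (2828 bp), Olig3 (2677 bp) and Sall3 (2637 bp), and in adult HPC at Lhx2 (1249 bp), Lef1 (1244 bp) and Sox6 (1213 bp).

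Few sites hung on the threshold. Only 8 fetal and 15 adult sites shared 10 bp or less with H3K4me1, and 6 and 19 other K27 sites lay within 10 bp of an H3K4me1 peak without touching it. Just inside were a fetal site at Abt1 sharing 1 bp and one at Tgfb2 sharing 4 bp, and an adult site at Bcar1 sharing 3 bp. Just outside were fetal sites at Cbr3, Plekhh2 and Meis2, with gaps of 1, 4 and 7 bp, and adult sites at Rgma, Rbpjl and Kdelr3, with gaps of 1, 2 and 2 bp. The band within 1 kb was fuller, with 2126 fetal and 3136 adult K27 sites that did not touch H3K4me1.

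Ranked by the fold of the K27 peak alone, the strongest double-marked sites were as follows. The site of highest fold in fetal HPC lay inside Gpr176, an orphan G protein-coupled receptor, at chr2:118369527-118372906 on mm10, 513 bp from a start, with fold 8.86. Next came sites inside Pard3, a cell polarity scaffold, with fold 8.77, and 20452 bp from Hoxc4 with fold 8.64. All 3 overlapped an adult K27 peak and adult HPC H3K4me1, and none overlapped H3K27ac at either age. Fetal HPC H3K4me1 covered only 18.8%, 9.59% and 12.3% of these peaks. In adult HPC the highest fold, 8.97, was at chr1:171069557-171069962 beside Fcgr3, an Fc receptor of myeloid cells, ahead of Cdh22 with 7.82 and Slc35g2 with 6.25. Adult HPC H3K4me1 covered 90.1%, 22.4% and 5.58% of these.

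Double-marked sites lay near gene starts more often than other K27 sites did. In fetal HPC 1268 of them (30.6%, 29.2 to 32.1) lay within 1 kb of a start, against 3.90% of other K27 sites and 5.97% of all. In adult HPC 575 (30.4%, 28.4 to 32.6) did, against 3.13% of others and 4.22% of all. The difference was 26.7 percentage points (25.3 to 28.2) in fetal and 27.3 points (25.3 to 29.4) in adult HPC. It was present in each width class: among peaks up to 500 bp the shares were 24.7% against 2.30% in fetal and 28.3% against 2.50% in adult HPC. Above 1000 bp they were 33.6% against 7.92% and 29.8% against 6.06%. The other K27 sites lack HPC H3K4me1 by the rule, and H3K4me1 itself lies on promoter flanks. H3K4me1 peaks without K27 were not counted near starts. Whether the excess goes beyond where H3K4me1 lies was therefore not tested.

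**Figure D1:**
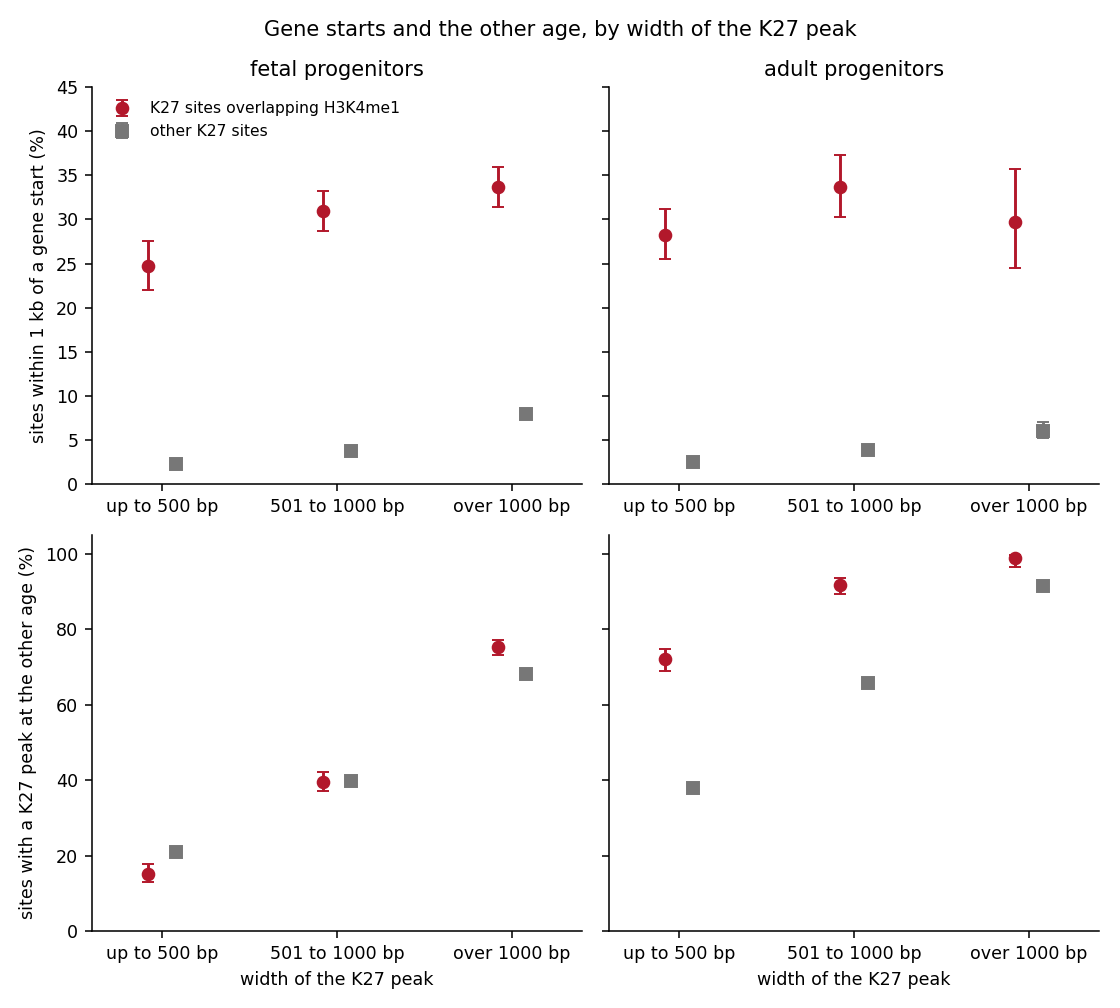
Share of K27 sites (percent, vertical axis) within 1 kb of a gene start (top) and with a K27 peak at the other age (bottom), by width of the K27 peak, in fetal and adult HPC. Points are shares over all autosomal sites of a class, bars are 95% Wilson intervals, red circles are double-marked sites and grey squares other K27 sites. Near starts the red points stand above the grey ones in all 6 classes, while at 501 to 1000 bp 39.6% of double-marked and 39.9% of other fetal sites had an adult K27 peak.

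Around the start itself the K27 peaks left a gap. Among the 1297 starts with a double-marked site within 2 kb in fetal HPC, K27 covered the start base at 8.02% and reached 47.0% at 1200 bp upstream and 45.6% at 2000 bp downstream. Among the 655 such starts in adult HPC it covered 2.90% of start bases, 32.8% at 1000 bp upstream and 35.7% at 2000 bp downstream. The same gap was present at starts with other K27 sites only: K27 covered 4.27% of 1616 such start bases in fetal and 2.48% of 1450 in adult HPC, and reached 38.5% at 1400 bp and 29.2% at 1500 bp upstream.

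H3K4me1 filled that gap in adult cells and not in fetal cells. At 491 starts of 432 genes a double-marked site lay within 2 kb at both ages. There the start base lay under HPC H3K4me1 at 58 starts (11.8%, 9.25 to 15.0) in fetal and 347 starts (70.7%, 66.5 to 74.5) in adult HPC. Of these starts, 55 were covered at both ages, 3 in fetal HPC only, 292 in adult HPC only and 141 at neither. Since the rule used HPC H3K4me1, the HSC lists, which it did not use, are the separate reading: 51 (10.4%, 7.99 to 13.4) in fetal and 316 (64.4%, 60.0 to 68.5) in adult HSC. Other starts serve as a scale. At all 1791 starts with any K27 site within 2 kb at both ages, which were not chosen on H3K4me1, the HPC shares were 5.36% and 45.2%. At 9508 active starts, with H3K27ac within 2 kb at both ages and no K27, they were 7.70% and 13.0%. Lhx2 was one of the genes of this kind, with its start outside H3K4me1 in fetal HPC and HSC and inside it in both adult cell types.

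List length and peak width both bear on such a count. The adult HPC H3K4me1 list was the shorter one, but its peaks were wider, as given above, and width was not made equal. With the 100000 strongest H3K4me1 peaks at each age, the shares of the 491 starts were 7.54% and 69.0% in HPC and 4.48% and 60.9% in HSC. Each age still had 1 pooled list per cell type, so age and the making of the libraries cannot be told apart.

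**Figure D2:**
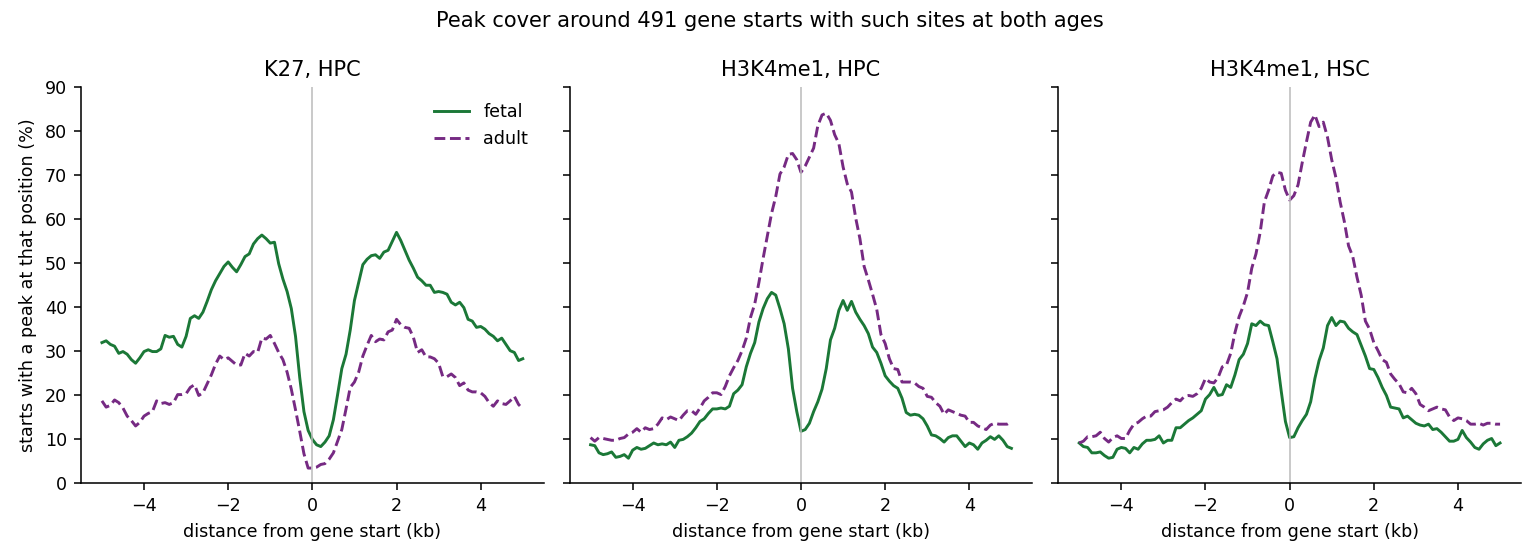
Share of 491 gene starts (percent, vertical axis) with a called peak at each distance from the start (kb, horizontal axis, transcribed to the right), for K27 in HPC, H3K4me1 in HPC and H3K4me1 in HSC. Solid green lines are fetal and dashed purple lines adult; the K27 lines dip at the start at both ages, and the H3K4me1 lines dip to 11.8% in fetal HPC but stand at 70.7% in adult HPC.

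Most double-marked sites also had H3K4me1 in stem cells. Of fetal double-marked sites 83.5% (82.4 to 84.6) overlapped an H3K4me1 peak of fetal HSC, against 3.07% of other K27 sites and 9.28% of all. Of adult sites 82.9% (81.1 to 84.5) overlapped one of adult HSC, against 1.54% and 4.77%. The other K27 sites lack HPC H3K4me1 by the rule, so other H3K4me1 peaks are the closer scale. HSC H3K4me1 lay at 82.2% of the fetal HPC H3K4me1 peaks that touched K27 and at 75.7% of those that did not, and in adult cells at 90.7% and 75.5%. Whether HSC also carry the K27 mark there was not analysed here.

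H3K27ac was nearly absent from double-marked sites at their own age. It overlapped 36 fetal sites (0.870%, 0.629 to 1.20) and 3 adult sites (0.159%, 0.0540 to 0.466), against 0.457% and 0.0147% of all K27 sites. At other K27 sites it was rarer still, 0.423% in fetal and 0.00876% in adult HPC. The share of fetal double-marked sites was 0.382% with 50% or more of the site covered. H3K27ac was present at 19.8% of the fetal and 38.7% of the adult H3K4me1 peaks that touched no K27 site, and at 1.73% and 7.27% of those that did. The exceptions included Bmi1, itself a Polycomb subunit and a self-renewal gene of blood stem cells. Its site at chr2:18677985-18679846 (fold 5.26) was 1 of 2 fetal sites overlapping a peak in all 8 lists. Bmi1 had H3K27ac at a start at both ages.

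Double-marked sites belonged to 2162 of 20665 autosomal coding genes (10.5%) in fetal HPC, to 1101 (5.33%) in adult HPC and to 883 (4.27%) at both ages, by nearest gene body within 100 kb. Most of these genes had a single site, 59.2% in fetal and 65.9% in adult HPC, and 119 fetal and 43 adult genes had 5 or more. Only 192 fetal sites (4.64%) and 52 adult sites (2.75%) had no gene within 100 kb, against 18.8% and 15.6% of other K27 sites.

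Homeobox genes were among those with most sites at each age. Lbx1, a homeobox factor of muscle and spinal cord, had 10 sites at each age, with the highest fold at 6.08 in fetal and 5.07 in adult HPC, and 6 of its fetal sites overlapped adult ones. Lhx2 had 10 fetal and 7 adult sites. Hoxd3 had 10 and 6, Tfap2a, a factor of neural crest, 12 and 4, and Pax6, the eye and brain factor, 11 and 3. Adult sites outnumbered fetal ones at Gata4, a heart and gut factor, with 3 fetal and 7 adult sites, and at Lhx6, a factor of interneurons, with 4 and 7. Skor1 had 7 and 8 and Nr2f1 had 7 and 8. None of these genes had H3K27ac within 1 kb of a start at either age.

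The gene lists were drawn up with earlier results of these data known, so their counts describe them and test nothing. Of 83 homeobox genes outside the Hox clusters, 77 (92.8%) had a double-marked site in fetal HPC, 70 (84.3%) in adult HPC and 69 at both. Of 39 Hox genes the counts were 20, 15 and 14. Among 46 Fox, Sox, Tbx and Gata factors they were 37, 34 and 33, and among 76 bHLH and zinc finger factors of development 56, 50 and 48. All genes stood at 10.5%, 5.33% and 4.27%. Most genes of these lists had a K27 site of any kind. That held for 82 of the 83 homeobox genes in fetal and 81 in adult HPC, against 32.1% and 24.4% of all genes. Counted per K27 site, 19.7% of fetal and 12.3% of adult sites at the 83 genes were double-marked. At Hox genes the shares were 24.9% and 11.1%. They were 14.4% and 9.16% at Fox, Sox, Tbx and Gata factors and 17.0% and 10.7% at bHLH and zinc finger factors. All K27 sites with a gene stood at 8.95% and 4.55%.

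The lists for signalling and for neural adhesion had more genes in fetal than in adult HPC. So did all coding genes, at 10.5% and 5.33%, so the excess is not particular to these lists. Of 49 Wnt pathway genes 24 had one in fetal and 12 in adult HPC. The ligand genes Wnt10b, with 4 fetal and 0 adult sites, and Wnt1, with 1 and 4, went opposite ways, and Wnt5a had 3 and 3. Of 47 genes of the Hedgehog, Fgf and Notch pathways 20 and 10 had one. Dhh, a Hedgehog ligand, had 3 at each age, and Hes1, the Notch target and repressor, had 5 fetal sites and none in adult HPC. Of 48 TGF-beta and BMP genes 14 and 12 had one, and Gdf6, a BMP-type ligand, had 5 and 2. Of 49 neural adhesion and guidance genes 28 and 14 had one, with the guidance receptor Robo3 at 7 and 4 and Nrxn2, a synaptic adhesion protein, at 0 and 4.

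Stem, progenitor and myeloid genes stood near the shares of all genes, and lymphoid genes above them. Of 30 stem and progenitor genes 4 had a double-marked site in fetal HPC, Erg, Prdm16 and Gata2 among them, and 1 in adult HPC, Erg. Erg, an ETS factor needed by blood stem cells, had 3 fetal and 2 adult sites beside 22 and 37 H3K27ac peaks in its body. Of 25 myeloid genes 3 and 1 had one, with Fcgr3 at 3 fetal and 4 adult sites. Of 25 lymphoid genes 7 and 6 had one, among them Lef1 with 4 and 1, Gata3 with 3 and 2 and Bcl11b with 3 and 1, all T cell factors. Of 26 interferon and antigen presentation genes 1 and 0 had one, and of 36 housekeeping genes none did at either age. Other cell types were counted too, each over 12 marker genes: hepatocyte 1 and 0, endothelium 2 and 1, B cell 2 and 2, T and NK cell 3 and 2, macrophage 1 and 1, stroma 4 and 3, erythroid and megakaryocyte 1 and 0.

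**Figure D3:**
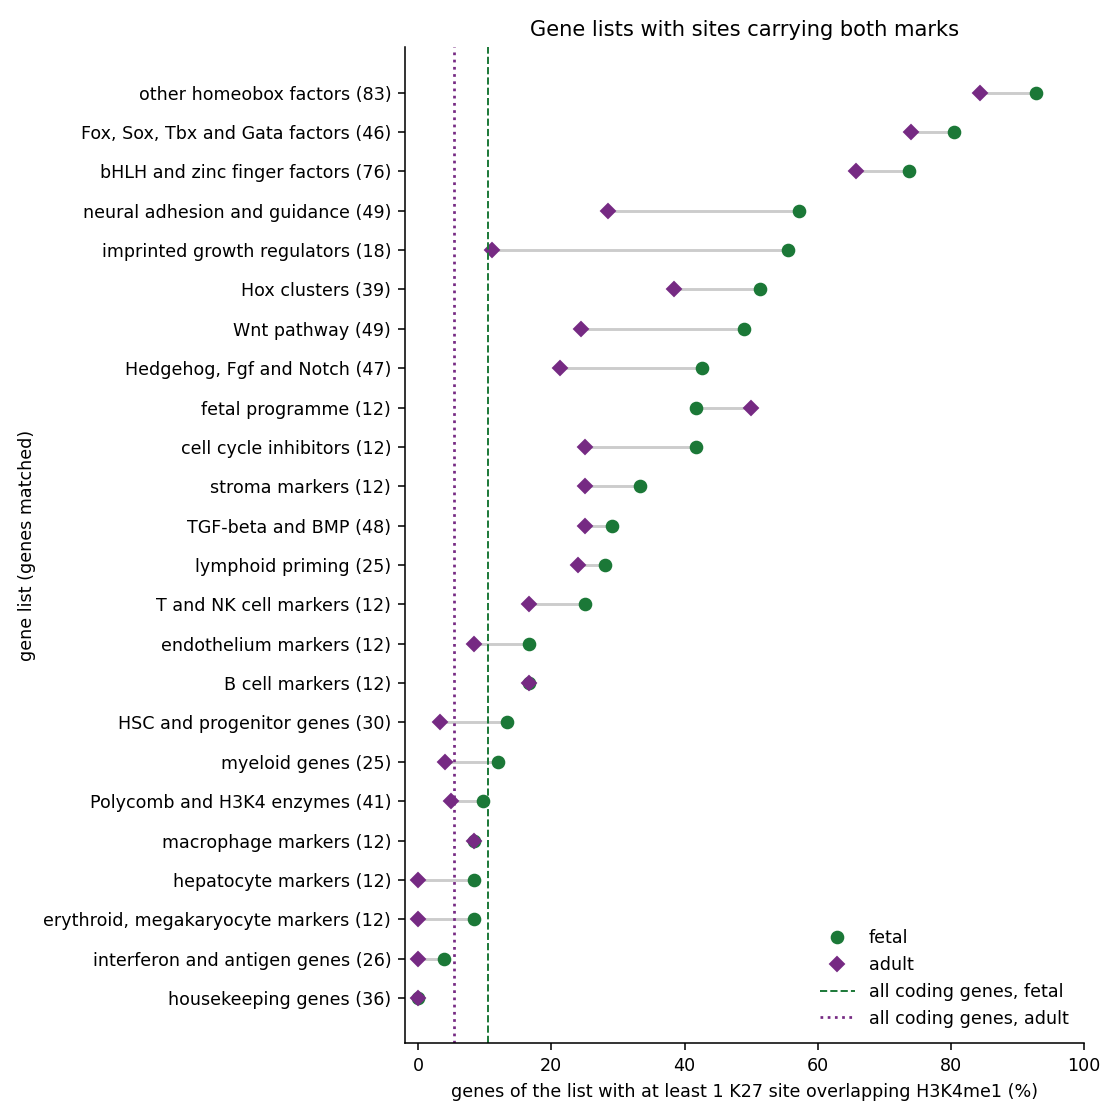
Share of the genes of each list (percent, horizontal axis) with at least 1 double-marked site in fetal HPC (green circles) and adult HPC (purple diamonds), with the number of genes matched in parentheses. Dashed and dotted lines give the share over all coding genes, 10.5% and 5.33%, and homeobox, Fox, Sox, Tbx, Gata, bHLH and zinc finger factors stand farthest to the right while housekeeping genes are at 0 at both ages. The share of genes with a K27 site of any kind is not shown.

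Polycomb's own genes formed a small group in which K27 sites were mostly double-marked. Of 41 genes for Polycomb subunits and H3K4 enzymes, 4 had double-marked sites in fetal HPC and 2 in adult HPC, near the 10.5% and 5.33% of all genes. Among them were Cbx8 with 9 fetal and 4 adult sites, Bmi1 with 3 and 1, and Cbx2 with 1 and 0. Cbx2 and Cbx8 encode chromodomain subunits that bind H3K27me3. Of the 32 fetal K27 sites at the 41 genes 19 (59.4%) were double-marked, and of 9 adult sites 5 were, against 8.95% and 4.55% of all K27 sites with a gene.

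Inhibitors of cyclin-dependent kinases, the brakes of the cell cycle, showed 5 of 12 genes in fetal and 3 of 12 in adult HPC. Cdkn2a, which encodes p16 and p19Arf and is a known Polycomb target in blood stem cells, had 8 fetal and 4 adult sites. Its neighbour Cdkn2b, encoding p15, had 6 and 2. Cdkn2c had 2 fetal sites, and no K27 site of any kind in adult HPC against 7 in fetal HPC. The larger one, chr4:109658054-109665812, spans 7759 bp with fold 6.04, and 832 bp of it lay under adult H3K27ac. Imprinted growth regulators showed 10 of 18 genes in fetal and 2 of 18 in adult HPC, with Igf2r at 5 and 0, Grb10 at 2 and 0 and Igf2 at 1 and 1.

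The fetal blood programme was the only one of the 24 lists with more genes in adult than in fetal HPC, 6 against 5 of 12. Igf2bp1, Igf2bp2 and Igf2bp3 had 1, 2 and 1 double-marked sites in adult HPC and none in fetal HPC. Lin28b, the RNA-binding protein that sets the fetal programme, had 1 at each age. All 4 had H3K27ac at a start in fetal and not in adult HPC. Sox17, a factor of fetal stem cells, went the other way with 3 and 1, and Hmga2 had 1 and 0. The strongest adult sites of Igf2bp1, Igf2bp2 and Lin28b had folds of 2.83, 3.56 and 2.83. Their −log10 q values were 1.10, 2.44 and 1.10. The adult site of Igf2bp3 had fold 2.70. Adult double-marked sites had a median fold of 3.05 and a median −log10 q of 1.38.

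**Figure D4:**
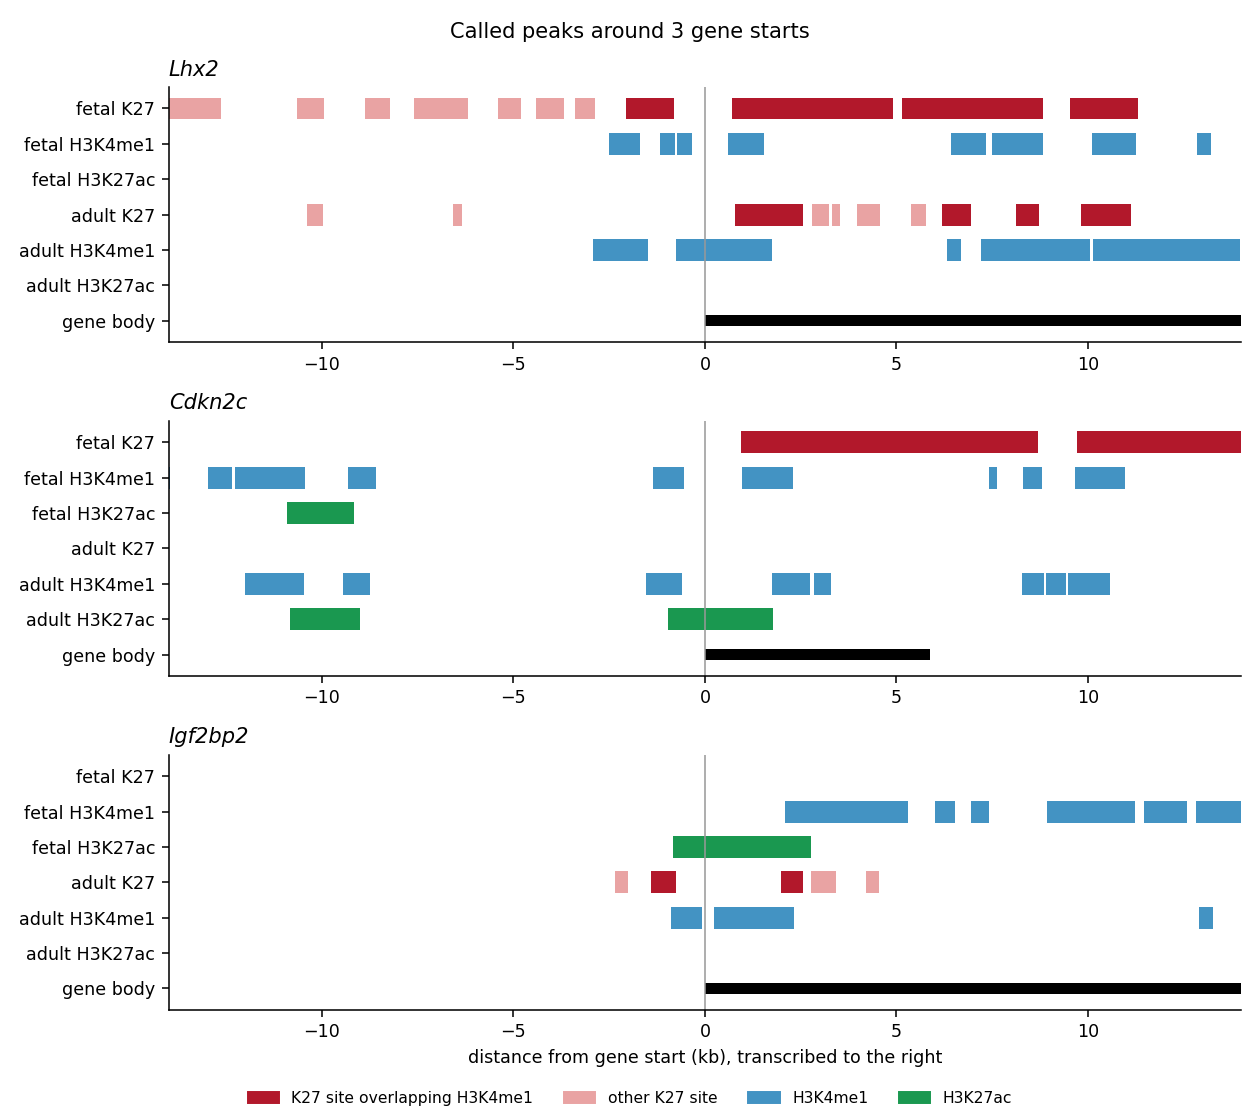
Called peaks around the starts of Lhx2, Cdkn2c and Igf2bp2 against distance from the gene start (kb, transcribed to the right), with 1 track for each mark and age in HPC. Dark red bars are double-marked K27 sites, pale red bars other K27 sites, blue bars H3K4me1, green bars H3K27ac and black bars the gene body; Lhx2 has dark red bars at both ages, Cdkn2c only in fetal HPC with adult H3K27ac over its start, and Igf2bp2 only in adult HPC with fetal H3K27ac over its start.

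Followed to the other age, adult double-marked sites were mostly present in fetal HPC, while fetal ones were split. The fetal K27 list was longer and its peaks wider, so an adult site meets a fetal peak more easily than the reverse. Over all K27 sites, 51.0% of adult and 38.2% of fetal ones met a K27 peak of the other age. A fetal K27 peak overlapped 1563 adult sites (82.7%, 81.0 to 84.4), against 49.7% of other adult K27 sites and 51.0% of all. An adult K27 peak overlapped 2005 fetal sites (48.4%, 46.9 to 50), against 37.4% of other fetal K27 sites and 38.2% of all. The adult excess was present in each width class, at 72.0% against 38.0% up to 500 bp and 98.8% against 91.3% over 1000 bp. The fetal excess was not: up to 500 bp the double-marked sites were below the others, 15.2% against 21.0%, at 501 to 1000 bp the shares were 39.6% and 39.9%, a difference of -0.28 points (-2.75 to 2.24), and over 1000 bp above them, 75.2% against 68.0%. The fetal share changed with the rule. It was 22.4% with 50% or more of the site covered and 5.08% with a −log10 q of at least 5 in both lists, where few adult sites were left. With the strongest 20000 K27 peaks it was 46.0%, with the strongest 100000 H3K4me1 peaks 45.2%, and with K27 peaks within 1 kb merged 57.6%. An adult double-marked site overlapped 1102 fetal ones (26.6%, against 2.79% of all fetal K27 sites), and a fetal one overlapped 1187 adult ones (62.8%, against 5.85%).

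Of the fetal double-marked sites, 1428 (34.5%) had K27 and H3K4me1 peaks in adult HPC, 1398 (33.8%) H3K4me1 alone, 558 (13.5%) K27 alone and 596 (14.4%) no peak. Another 159 (3.84%, 3.30 to 4.47) overlapped adult H3K27ac, 140 of them with no adult K27. Of adult sites, 1124 (59.5%) had both peaks in fetal HPC, 436 (23.1%) K27 alone, 177 (9.37%) H3K4me1 alone and 139 (7.36%) none. Other fetal K27 sites mostly had no adult peak, 61.4%, or K27 alone, 36.1%. H3K4me1 was found again at the other age at 72.0% of fetal and 69.5% of adult double-marked sites, against 7.89% and 5.0% of all K27 sites, most of which lacked it at their own age too. Counted over HPC H3K4me1 peaks, 70.1% of the fetal ones that touched K27 and 60.4% of the others had adult H3K4me1, while of the adult ones 74.5% and 77.9% had fetal H3K4me1. HSC H3K4me1 of the other age lay at 74.3% of fetal and 71.7% of adult double-marked sites, against 8.71% and 6.29% of all.

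**Figure D5:**
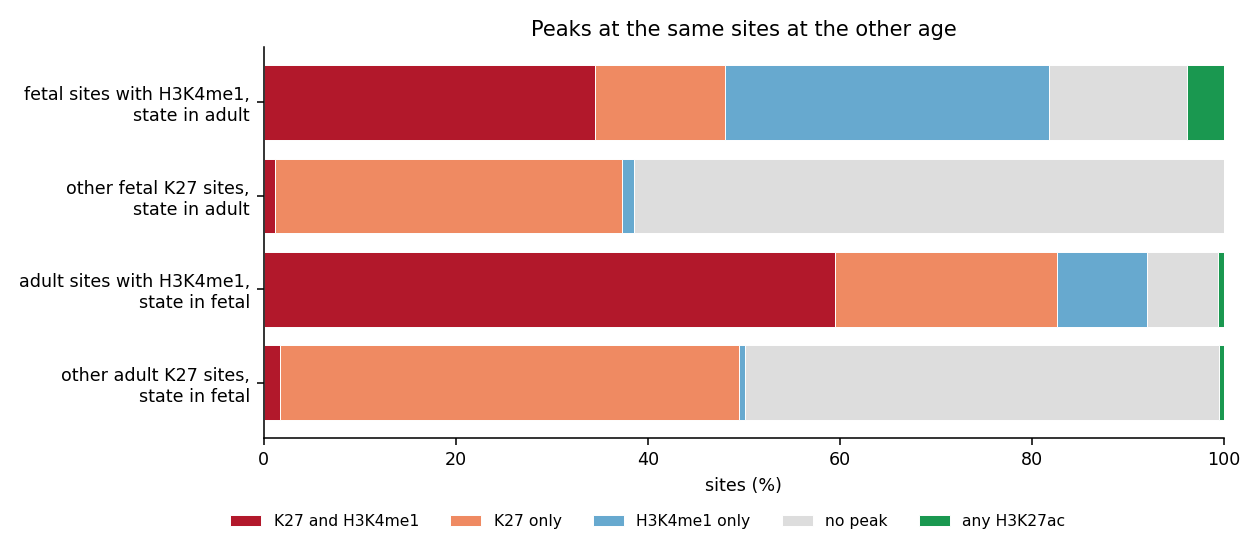
Peaks found at the other age at fetal and adult double-marked sites and at other K27 sites of the same age, as shares of each set (percent, horizontal axis). Colours give K27 with H3K4me1, K27 alone, H3K4me1 alone, no peak, or any H3K27ac; among fetal double-marked sites 34.5% had both marks and 33.8% had H3K4me1 alone, and among other fetal K27 sites 61.4% had no adult peak.

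Adult H3K27ac lay on fetal double-marked sites far more often than on other fetal K27 sites, 3.84% against 28 of 49457 (0.0566%) and 0.349% of all. The difference of 3.78 points (3.24 to 4.41) was of similar size in each width class. In the reverse direction, fetal H3K27ac lay on 13 adult double-marked sites (0.688%) against 0.510% of other adult K27 sites and 0.517% of all, a difference of 0.178 points (-0.116 to 0.668). H3K4me1 peaks without K27 set a second scale. Among fetal H3K4me1 peaks without fetal H3K27ac, adult H3K27ac was found at 252 of 4368 that touched K27 (5.77%, 5.12 to 6.50) and at 15.3% of 136516 that did not. In fetal HPC, double-marked K27 sites thus stood above other K27 sites, and H3K4me1 peaks that touched K27 stood below other H3K4me1 peaks. Adult H3K4me1 peaks without adult H3K27ac had fetal H3K27ac at 13 of 1595 that touched K27 (0.815%, 0.477 to 1.39). Of the 75212 that did not, 4.88% had it.

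The 159 fetal sites belonged to 139 genes, and 94 (59.1%) lay within 1 kb of a start. Nfia, a transcription factor of glia and of the erythroid lineage, had the most double-marked sites of any gene in fetal HPC, 13, of which 3 overlapped adult H3K27ac. It had 40 K27 sites in fetal and none in adult HPC, and H3K27ac peaks in its body numbered 16 in fetal and 33 in adult HPC. Zswim6 had 3 sites, all of them under adult H3K27ac, and no adult K27 site. Apbb2 had 9 double-marked among 56 fetal K27 sites and 3 adult K27 sites, none double-marked, with H3K27ac at a start in adult HPC only. Hes1 had all 5 of its fetal K27 sites double-marked, none in adult HPC, and H3K27ac at its start in adult HPC only.

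Having K27 at 1 age only was less frequent among genes with a double-marked site than among other K27 genes. Of the 2162 genes with a fetal double-marked site, 525 (24.3%, 22.5 to 26.1) had no adult K27 site at all, against 1608 of 4466 (36.0%, 34.6 to 37.4) with fetal K27 sites and none double-marked. The former had more K27 sites, a median of 5 against 2. Of the 525 genes 342 (65.1%) had adult H3K27ac at a start and 178 (33.9%) fetal H3K27ac, and of the 1608 genes 764 (47.5%) and 599 (37.3%) did. Over all genes H3K27ac stood at a start of 56.4% in adult and 47.9% in fetal HPC. Of the 1101 genes with an adult double-marked site, 36 (3.27%) had no fetal K27 site, against 510 of 3940 (12.9%) with adult K27 sites and none double-marked. Of the 36 genes 14 had H3K27ac at a start in fetal HPC and 19 in adult HPC. Chosen after their values were seen, Irs2, an adaptor of the insulin receptor, had 8 fetal double-marked sites and 41 fetal K27 sites, and Adgrl2, an adhesion receptor, had 9 and 16. Neither had an adult K27 site. Spats2 and Ccdc186 were the adult counterparts with 3 double-marked sites each.

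MicroRNA genes with double-marked sites included every locus of miR-9, a microRNA of neural progenitors. Hairpins within 1 kb of such a site numbered 25 of 919 in fetal HPC (2.72%) and 10 in adult HPC (1.09%). The mature sequences below, from RefSeq, come from hairpins named in the text, with the seed, bases 2 to 8, in capitals.
miR-9-5p: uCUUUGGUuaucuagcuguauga
miR-9-3p: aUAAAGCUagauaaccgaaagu
miR-34b-5p: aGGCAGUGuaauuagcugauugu
miR-449c-5p: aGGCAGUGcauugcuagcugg
miR-125b-5p: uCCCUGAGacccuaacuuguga
miR-10b-5p: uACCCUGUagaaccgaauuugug
miR-290a-3p: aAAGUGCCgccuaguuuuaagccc
miR-137-3p: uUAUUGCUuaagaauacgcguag
The hairpins Mir9-1, Mir9-2 and Mir9-3 lie on chromosomes 3, 13 and 7 and give the same mature miR-9. In fetal HPC the nearest double-marked site was 662 bp, 0 bp and 751 bp away, and in adult HPC 784 bp, 23 bp and 710 bp. Within 10 kb of Mir9-2 lay 5 double-marked sites at each age, the strongest with fold 6.22 in fetal and 4.11 in adult HPC. By nearest coding gene these count for Mef2c, which had 8 fetal and 9 adult sites, all between 44847 and 72844 bp from its gene body. Mef2c itself, a MADS-box factor, had H3K27ac at a start at both ages and no double-marked site closer than that.

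The miR-34 family, whose members share the seed GGCAGUG, was represented by Mir34b, Mir34c and Mir449c. Mir34b lay 664 bp from a fetal and 614 bp from an adult site. Mir34c lay 136 bp from a fetal and 1149 bp from an adult site, and Mir449c 65 bp and 1748 bp. Mir125b-1, whose product is abundant in blood stem cells, lay inside a fetal site, with the nearest adult one 616172 bp away. Mir290a, of the cluster expressed in embryonic stem cells, also lay inside a fetal site, with the nearest adult one 112559 bp away. Mir10b, within the Hoxd cluster, was 797 bp from a fetal site. Mir137, another neural microRNA, was the reverse, 311 bp from an adult site and 1465740 bp from the nearest fetal one.

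Double-marked sites were commoner where K27 peaks crowded. With K27 peaks up to 5 kb apart joined into clusters, 4.89% of lone fetal peaks were double-marked and 10.8% of those in clusters of 10 or more. In adult HPC the shares were 2.37% and 5.30%. Of 649 fetal clusters with 10 or more peaks 376 (57.9%) held a double-marked site, and of 764 adult ones 272 (35.6%) did. Of clusters with 2 to 4 peaks, 13.7% of fetal and 7.07% of adult ones did. A cluster with more peaks has more chances to hold such a site, so these shares rise with peak number in any case. Even in the large clusters most peaks lacked H3K4me1. At Foxb1 9 of 63 fetal and 2 of 78 adult K27 sites were double-marked, and at Pax2 8 of 90 and 5 of 103. At Lbx1, in contrast, 10 of 20 fetal and 10 of 21 adult sites were, and at Skor1 7 of 10 and 8 of 10.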

How the data were processed

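Members and gene lists were chosen with earlier results of these data known. Reads were aligned with Novoalign and peaks called with MACS2, per the submitters' processing notes, which give mm10 as the build. For versions, thresholds, the filter and the use of the 3 inputs among the 27 libraries, the sources used here give nothing. The authors deposited 1 filtered peak list per group, with a fold (ratio of ChIP signal over background) and −log10 p and −log10 q values per peak, which here serve only as descriptions and filters within 1 list. Sex chromosomes were left out. Read depth is unknown. Each K27 site went to the nearest of 20665 coding gene bodies of RefSeq (GRCm38.p6) within 100 kb. Starts came from the RefSeq promoter table for 16457 genes (79.6%) and, for the others, from both gene ends, and near meant within 1 kb. Exons and introns were not analysed here. Of 755 list names 746 matched autosomal coding genes. Overlaps were counted in Python 3.11.15 with numpy 2.4.6 and pandas 2.3.3, and the counting was tested on simulated intervals. Shares have Wilson intervals and differences Newcombe intervals. The rule for named genes took, per age, the 8 genes with most sites, up to 4 per list, the 3 sites of highest fold and the 3 sharing most bases, the 3 genes with most sites acetylated at the other age, and the 6 genes with most fetal sites overlapping adult ones. Not every gene it took is printed, and microRNA genes, the printed starts and the sites at the overlap threshold fall outside it. Alternatives were 50% or more of the K27 peak covered, a −log10 q of at least 5, the strongest 20000 K27 or 100000 H3K4me1 peaks, and K27 peaks within 1 kb merged.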

Additional observations from a re-analysis of the deposited data

How the results depend on the processing

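The alternatives were run on the shares of double-marked sites, not on those of other K27 sites. The difference in double-marked share between the ages stayed above 0 in all 5. With 50% or more of a site covered, at −log10 q of at least 5, in the strongest 20000 K27 peaks, with the strongest 100000 H3K4me1 peaks and with K27 peaks within 1 kb merged, in that order, the double-marked share was 4.40%, 20.6%, 12.9%, 4.36% and 8.83% in fetal and 2.27%, 6.67%, 4.98%, 3.55% and 4.94% in adult HPC. Their difference was 2.13, 13.9, 7.95 and 0.81 points under the first 4. In the same order of all 5, fetal sites with an adult K27 peak made up 22.4%, 5.08%, 46.0%, 45.2% and 57.6%, and those with HSC H3K4me1 73.7%, 89.1%, 86.4%, 93.5% and 84.7%. Adult sites with a fetal K27 peak made up 75% with 50% covered, 92.1% at q, 79.6% in the strongest K27 peaks and 85.7% merged. Adult sites with HSC H3K4me1 made up 77.1% with 50% covered and 86.6% with fewer H3K4me1 peaks. Near a start lay 35.4%, 32.9% and 35.4% of fetal and 26.3%, 32.7% and 34.2% of adult sites at q, in the strongest K27 peaks and merged. H3K27ac overlapped 0.382% of fetal sites with 50% covered and 0% of adult sites at q. The other 21 values stayed within counting error, among them 3 alternatives chosen after seeing the data: either end of every gene as a start, and fewer H3K4me1 peaks at starts in HPC and in HSC. Only 38 adult sites reached that q, which limits what it shows. A missing peak is not a missing mark, since calling depends on depth, which is unknown. No paired analysis was possible because each list pools its libraries, and for the same reason no library could be left out.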
